A study of Mus musculus with 19 samples.

Results

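The genes described are 9 factors of the eye field and of retinal progenitors, Pax6, Six3, Six6, Rax, Vsx1, Sox2, Fgf15, Ccnd1 and Hmga2. They were picked by gene symbol and not by a cut on a measured value, but with earlier results of these data known. They are set against all genes of the 3 deposited RNA-seq tables. All 9 are among the 23635 genes listed at 14 days and the 35734 listed at E17.5, and 8 are among the 22294 listed at 48 h, where Vsx1 is not listed. The study asked what the POU transcription factor Pou3f1 does in the mouse retina, in connection with axons that cross to the opposite side of the brain. For the gain of function, eyes of wild-type CD1 pups were electroporated on postnatal day 1 with plasmid at 3 µg/µl, and GFP-positive cells were sorted. The groups were 5 libraries of Pou3f1 cells and 4 of Gfp cells at 14 days, and 3 libraries of Pou3f1 cells and 3 of Gfp cells at 48 h. Each sorted replicate pooled several samples to 150000 cells. The promoter that drives the plasmid is not given in the sources used here. For the loss of function, whole C57B6J retinas at E17.5 came as 2 homozygous Pou3f1 knockout (KO) and 2 heterozygous (HET) libraries, so the HET libraries also carry 1 mutant copy. The kind of mutant allele is likewise not stated there.

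The eye field is the patch of the anterior neural plate from which both eyes form. Pax6, Six3, Six6 and Rax are homeobox factors that specify it and later keep retinal progenitors dividing and multipotent. Sox2 is the SoxB1 factor of neural stem and progenitor cells. Fgf15 is a secreted growth factor made by progenitors, Ccnd1 encodes cyclin D1, the main D-type cyclin of the dividing retina, and Hmga2 is a chromatin protein of young stem cells that let-7 microRNAs repress. On GRCm38 Pax6 and Vsx1 lie on chromosome 2 (from 105668900 to 105697364 and from 150680702 to 150689360), Sox2 on chromosome 3 (34650405 to 34652461) and Hmga2 on chromosome 10 (120361275 to 120476469). Six6 lies on chromosome 12 (72939892 to 72944899) and Six3 on chromosome 17 (85613608 to 85629302), while Fgf15 and Ccnd1 share chromosome 7. Several of these genes stay on in mature cells. Pax6 and Six3 persist in amacrine cells, Pax6 and Six6 in ganglion cells, Sox2 in Müller glia and cholinergic amacrine cells, and Rax in Müller glia. Vsx1 is the exception in the set. In the mouse it is best known as a factor of differentiating cone bipolar cells.

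The tables hold 1 line per gene with the result of the authors' fit and no value per library, so levels per sample and the depth of each library are unknown. Sums of the mean normalized counts were 38507471 at 14 days and 16020842 at 48 h. Standard errors (SE) of the log2 fold changes had a median of 0.150 at 14 days and 0.199 at 48 h. The authors' deposited tables give Pou3f1 itself a log2 fold change of 5.57 ± 0.27 (SE) at 14 days and 0.91 ± 0.26 at 48 h, Pou3f1 over Gfp cells. At E17.5 the authors' deposited table gives -0.69 with no SE. The column headers of the tables name no direction, and the name of the E17.5 table puts HET before KO. The signs are read here as Pou3f1 over Gfp and as KO over HET because Pou3f1 is then higher on overexpression and lower in the knockout. Rose and fell are used only of genes with an authors' adjusted p under 0.05. The age of E17.5 is that of the sample labels, and the name of that table states a different embryonic day. If the E17.5 table ran as its name does, every sign given for it would turn round, and Pou3f1 would be higher in KO retinas. In the overexpression tables the fold changes bear signs of shrinkage toward 0, which would understate the changes of low genes. At 14 days Crygd, at a mean count of 0.243, had an SE of 0.102, against 0.297 for Cdk1 at 51.3. At 48 h Crygd, at 0.444, had an SE of 0.0845, against 0.296 for Bfsp1 at 22.2. Intervals computed here from such SE would be affected too. The E17.5 table lists no SE or mean count, so the same check could not be made there. Nothing in the labels ties replicates to separate animals, so the spread behind each p-value is that of the libraries at hand and may be technical.

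At 14 days, 3 of the 9 genes rose in Pou3f1 cells over Gfp cells, Six3, Ccnd1 and Fgf15, and 0 fell. Over all 17789 genes with an adjusted p, 20.7% were called, 11.5% higher and 9.21% lower. The median log2 fold change was 0.28 over the 9 genes and -0.01 over all genes tested. In sorted pools, more cells of a type and more RNA per cell cannot be told apart.

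Among the eye field factors, Six3 had the clearest change. The authors' deposited table lists Six3 at 0.69 ± 0.14 at a mean normalized count of 2536 (adjusted p = 4.32e-05), a 1.61-fold rise with a 95% interval of 1.33 to 1.95. By p-value it ranked 480 of 17789 genes. Six6, the closest relative of Six3 in this set, was not called. Six6 was at 0.05 ± 0.13 in the authors' deposited table, with an adjusted p of 0.843, and its interval of 0.866 to 1.23-fold leaves out the Six3 value. Pax6 lay between them, at 0.41 ± 0.18 in the authors' deposited table, at an adjusted p of 0.0862 and an unadjusted p of 0.0219. Rax was the most precisely measured of the 9, at -0.15 ± 0.08 in the authors' deposited table, with an adjusted p of 0.191. Its interval was 0.806 to 1.01-fold. A change of Rax in either direction as large as that of Six3 is outside this interval.

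Vsx1, the bipolar cell factor, was at 0.28 ± 0.19 in the authors' deposited table at 14 days (adjusted p = 0.303). Sox2 was at -0.03 ± 0.17 in the authors' deposited table, with an adjusted p of 0.925 and an interval of 0.776 to 1.23-fold. The related SoxB1 gene Sox3 rose by 0.99 ± 0.25 in the authors' deposited table, at an adjusted p of 0.000923. Its mean count was 64.1, and that of Sox2 was 395.

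The progenitor signal and the cyclin both rose, with like listed values. Fgf15 was at 0.83 ± 0.30 in the authors' deposited table, with an adjusted p of 0.0295, a 1.78-fold rise with an interval of 1.19 to 2.65. The mean count behind it was only 32.3, and the call is lost at an adjusted p under 0.01. At so low a count shrinkage may understate the Fgf15 value and shape its interval, so its likeness to Ccnd1 is uncertain. Ccnd1 was at 0.76 ± 0.21 in the authors' deposited table at a mean count of 1328 (adjusted p = 0.00431), a 1.70-fold rise with an interval of 1.27 to 2.27. Hmga2 had a negative value that did not pass, -0.29 ± 0.19 in the authors' deposited table, at an adjusted p of 0.308 and a mean count of 51.6. Its interval was 0.631 to 1.07-fold.

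**Figure D1:**
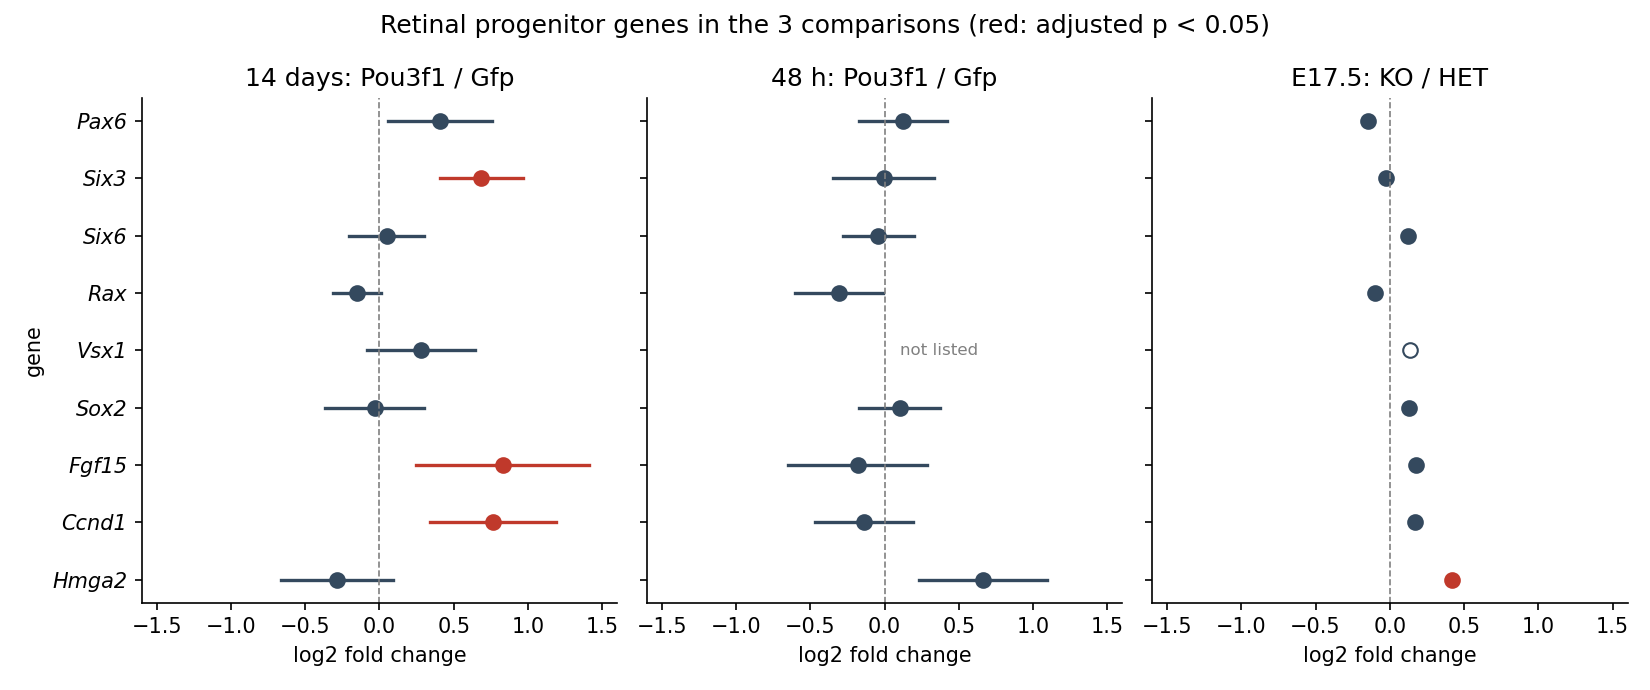
Log2 fold change of each of the 9 genes (horizontal axis) at 14 days and 48 h (Pou3f1 over Gfp, bars are 95% intervals from the SE) and at E17.5 (KO over HET, no SE listed). Red marks an adjusted p under 0.05 and the open circle a gene with no adjusted p. Six3, Fgf15 and Ccnd1 are red at 14 days, no gene is red at 48 h, and Hmga2 is red at E17.5.

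At 48 h, 0 of the 8 listed genes changed by the authors' DESeq2 test. Hmga2 was higher and Rax lower at an unadjusted p under 0.05, 1 gene in each direction. Over all 14714 genes with an adjusted p, 3.04% were called, 1.48% higher and 1.56% lower, so a count of 0 among 8 is near the background. The median log2 fold change was -0.02 over the 8 genes and -0.01 over all genes tested. Hmga2 was nearest to the threshold, at 0.66 ± 0.22 in the authors' deposited table, with an adjusted p of 0.0737 and a mean count of 305. This is 1.58-fold with an interval of 1.17 to 2.13. Rax followed with -0.31 ± 0.15 in the authors' deposited table, at an adjusted p of 0.309. This is 0.808-fold with an interval of 0.659 to 0.991.

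The genes that rose at 14 days had values just below 0 at 48 h, and none passed the threshold. The authors' deposited table gives Six3 -0.01 ± 0.17 (interval 0.787 to 1.26-fold). It gives Ccnd1 -0.14 ± 0.17 (interval 0.723 to 1.14-fold), and Fgf15 -0.18 ± 0.24 (interval 0.637 to 1.22-fold). The authors' deposited table gives Ccnd1 a mean count of 36705 at 48 h, the highest of the 8 genes. The other eye field and stem cell genes had small values too. In the authors' deposited table Pax6 was at 0.13 ± 0.15 (0.888 to 1.34-fold), Six6 at -0.04 ± 0.12 (0.822 to 1.15-fold) and Sox2 at 0.10 ± 0.14 (0.889 to 1.29-fold).

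**Figure D2:**
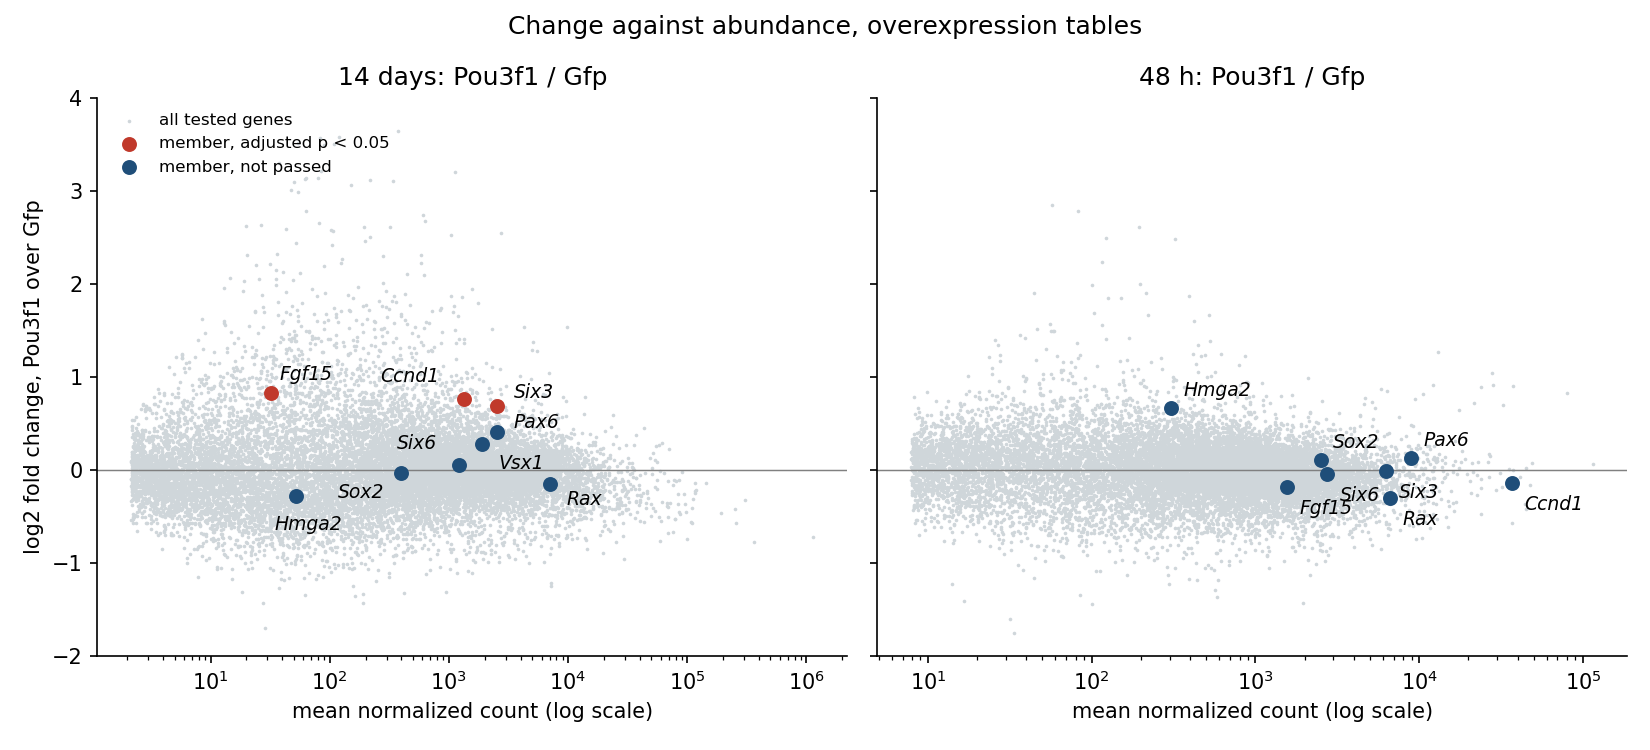
Log2 fold change, Pou3f1 over Gfp (vertical axis), against mean normalized count (horizontal log axis) for all genes with an adjusted p (grey) and the 9 genes (coloured), at 14 days on the left and 48 h on the right. At 14 days Six3, Ccnd1 and Fgf15 lie above the grey band's centre at counts of 2536, 1328 and 32.3. At 48 h all but Hmga2 lie within 0.31 of 0, and Pou3f1 at 14 days lies above the drawn range.

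The 14 day and 48 h changes were compared directly, since by the labels the tables share no libraries. A two-sided z test of the difference was run on 14580 genes with Benjamini-Hochberg adjustment. It called 6.14%, and 4.48% of the genes tested had a called change that was higher at 14 days. Of the 8 genes in both tables, 3 differed. The median difference was 0.22 over the 8 genes and 0.03 over all genes tested. The change of Ccnd1 was higher at 14 days than at 48 h by 0.90 ± 0.27 (adjusted p = 0.0233), and that of Six3 by 0.69 ± 0.22 (adjusted p = 0.0362). The change of Hmga2 was lower at 14 days than at 48 h, with a difference of -0.95 ± 0.29 (adjusted p = 0.0277). The values of Hmga2 had opposite signs at 14 days and 48 h, but neither of its own changes passed and its 14 day interval includes no change. For Fgf15 the difference was 1.01 ± 0.38 (adjusted p = 0.0900), as large as that of Ccnd1 but not past the threshold. For Pax6, Rax, Sox2 and Six6 the adjusted p was 0.557 or above. Their 95% intervals ran from -0.56 for Sox2 to 0.74 for Pax6 on the log2 scale.

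These responses sit on very different levels. To compare genes, mean counts were divided by exonic length and scaled to a total of 1000000 units in each table. The 2 tables were normalized separately, so the ratio between ages is a description with no test, and the spread between libraries is unknown. At 48 h Ccnd1 led by far with a level of 1740 units, and at 14 days it was at 31.3 units, 55.5 times less. Fgf15 had the widest gap between the ages, with 1.17 units at 14 days against 114 units at 48 h, 96.7 times less. Sox2 was at 21.3 units at 14 days and 272 units at 48 h, and Hmga2, the lowest of the set at both ages, at 0.847 and 10.04 units.

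The eye field factors had smaller gaps. Pax6 was at 24.1 units at 14 days and 171 units at 48 h, Six3 at 51.7 and 258, and Six6 at 33.9 and 153 in the same order. Rax was the highest of the 9 at 14 days with 134 units, against 254 units at 48 h, only 1.89 times less. Vsx1, unlisted at 48 h, was second at 14 days with 55.8 units. With no value at 48 h, the level of Vsx1 cannot be compared between the ages. Proliferation genes, 13 listed at each age, summed to 155 units at 14 days and 1980 units at 48 h. Photoreceptor genes summed to 62667 units over 12 listed genes at 14 days and to 1331 units over 5 at 48 h. The photoreceptor sums thus cover different genes and cannot be compared between the ages.

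**Figure D3:**
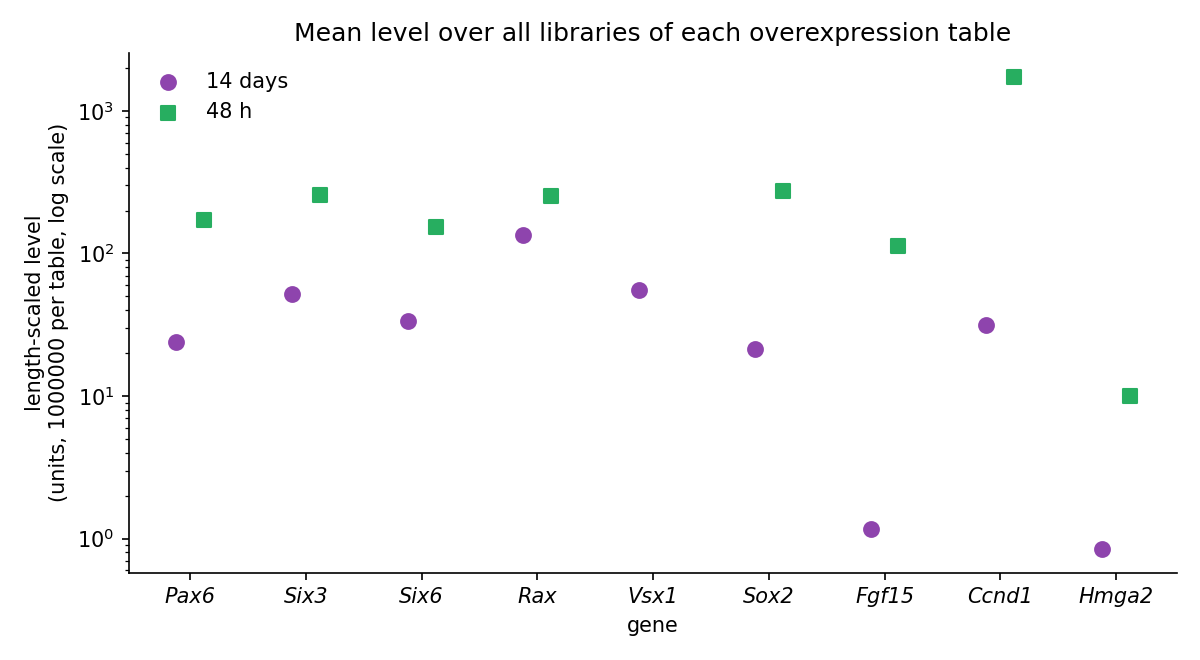
Length-scaled mean level (vertical log axis, scaled within each table) of each gene at 14 days (circles) and 48 h (squares), averaged by the authors over all libraries of a table. Every gene listed at both ages is lower at 14 days, with Rax (134 and 254) closest together and Fgf15 (1.17 and 114) farthest apart.

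In the E17.5 retina, 1 of the 8 genes with an adjusted p rose in KO over HET, Hmga2, and 0 fell. Over all 14821 genes with an adjusted p, 10.03% were called, 4.70% higher and 5.34% lower. The median was 0.13 over the 8 genes and 0.00 over all genes tested. Hmga2 was at 0.42 in the authors' deposited table, with an adjusted p of 0.000479, a 1.34-fold rise that ranked 429 by p-value. Fgf15 and Ccnd1 came next with nearly equal values. The authors' deposited table lists Fgf15 at 0.18 (adjusted p = 0.0653, unadjusted p = 0.00738) and Ccnd1 at 0.17 (adjusted p = 0.0804, unadjusted p = 0.00986).

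None of the eye field factors passed at E17.5. In the authors' deposited table Pax6 was at -0.15 (adjusted p = 0.323), Rax at -0.10 (adjusted p = 0.587), Six6 at 0.12 (adjusted p = 0.300) and Six3 at -0.02 (adjusted p = 0.899). Sox2 was at 0.13 in the authors' deposited table, at an adjusted p of 0.333. Vsx1 was at 0.14 with an unadjusted p of 0.250 and no adjusted p in the authors' deposited table, and the filter behind the missing value is not stated. The table gives no SE, and 95% intervals follow only if each p is taken as a two-sided normal p. On that reading the authors' deposited table gives Pax6 an interval of 0.803 to 1.01-fold and Six3 one of 0.898 to 1.08-fold, while that of Hmga2 is 1.17 to 1.53-fold.

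The genes that work with each member were taken from lists chosen with earlier results of these data known. Their calls give the setting of the 9 genes and no independent support. Over all genes tested, 11.5% rose and 9.21% fell at 14 days, 1.48% and 1.56% at 48 h, and 4.70% and 5.34% at E17.5. No list was tested against these shares. Among 24 other eye field and progenitor transcription factors, 5 of 23 tested rose and 0 fell at 14 days (median 0.16). At 48 h 0 of 22 rose and 3 fell (median -0.32), and at E17.5 0 of 23 rose and 8 fell (median -0.13). At 14 days the nuclear factor Nfib came first by adjusted p, with 0.69 ± 0.15 in the authors' deposited table, with an adjusted p of 0.000208, followed by Sox3 and by the T-box gene Tbx2 with 0.58 ± 0.19 (adjusted p = 0.0169). At 48 h the 3 that fell were the BMP target Id3 (-0.60 ± 0.16), the Notch target Hey1 (-0.62 ± 0.19) and Nfix (-0.71 ± 0.21) in the authors' deposited table, at adjusted p of 0.0103, 0.0339 and 0.0337. At E17.5 Nfix fell by 0.89 and Sox8, a glial SoxE factor, fell by 0.72 in the authors' deposited table, at adjusted p of 5.79e-06 and 2.48e-09. Meis2 and Otx2 also fell at E17.5, by 0.34 and 0.35 in the authors' deposited table, at adjusted p of 0.000476 and 0.00335.

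Ccnd1 rose at 14 days together with its kinase partner. Of 20 genes of the D-type cyclins and of the step from G1 to S phase, 4 rose and 1 fell at 14 days (median 0.05), 1 rose and 0 fell at 48 h (median 0.03), and 6 rose and 1 fell at E17.5 (median 0.13). At 14 days Cdk4, the kinase that D-type cyclins activate, rose by 0.88 ± 0.16 in the authors' deposited table, at an adjusted p of 1.15e-06. Ccnd3, the D-type cyclin of Müller glia, fell by 0.41 ± 0.10 in the authors' deposited table, with an adjusted p of 0.00116, so Ccnd1 and Ccnd3 moved in opposite directions. At E17.5 Ccnd3 rose by 0.36 in the authors' deposited table, at an adjusted p of 5.23e-05. The inhibitor gene Cdkn1c was called in every comparison. It rose by 0.34 ± 0.10 at 14 days and by 0.63 ± 0.17 at 48 h, and fell by 0.40 at E17.5, in the authors' deposited tables, at adjusted p of 0.00985, 0.00891 and 0.0232.

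Proliferation genes gave the cell cycle setting. Of 13 tested, 5 rose and 0 fell at 14 days (median 0.49), 0 rose and 1 fell at 48 h (median -0.09), and 5 rose and 1 fell at E17.5 (median 0.13). At 14 days the replication helicase genes Mcm6, Mcm5, Mcm3 and Mcm2 rose by 0.48 to 0.86 in the authors' deposited table, at adjusted p from 0.000802 to 0.00761. At E17.5 Mcm3, Mcm5, Pcna and Mcm6 rose by 0.31 to 0.46 in the authors' deposited table, at adjusted p from 2.79e-07 to 2.01e-05. The 1 gene that fell there, named after its value was seen, was the division marker Mki67, at -0.31 in the authors' deposited table, at an adjusted p of 0.0199.

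Fgf15 signals through Fgf receptors and the MAP kinase pathway. Of the other Fgf signalling genes, 2 rose and 2 fell of 21 at 14 days (median -0.07), near the 20.7% of all genes called. At 48 h 1 rose and 1 fell of 19 (median -0.08), and at E17.5 2 rose and 1 fell of 20 (median -0.01). At 14 days the receptor gene Fgfr3 rose by 0.88 ± 0.28 and the ligand gene Fgf2 fell by 1.01 ± 0.28 in the authors' deposited table, at adjusted p of 0.0124 and 0.00356. The receptor antagonist gene Il17rd fell at 48 h by 0.63 ± 0.18 and at E17.5 by 0.49 in the authors' deposited tables, at adjusted p of 0.0226 and 1.34e-07. At E17.5 the pathway's feedback gene Dusp6 rose by 0.24 and Fgf3 by 0.26 in the authors' deposited table, at adjusted p of 0.0144 and 0.0210.

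Hmga2 belongs with the Lin28 proteins, which block the let-7 microRNAs that repress it. Of 10 genes of that axis, 0 rose and 1 fell at 14 days (median -0.02), 0 rose and 0 fell at 48 h (median 0.02 by the authors' DESeq2 test, with 1 higher at an unadjusted p under 0.05), and 2 rose and 0 fell at E17.5 (median 0.10). Lin28b rose beside Hmga2 in KO retinas, by 0.38 in the authors' deposited table, at an adjusted p of 0.0242. Igf2bp2, an RNA-binding protein whose gene is a target of Hmga2, rose there by 0.22 in the authors' deposited table, with an adjusted p of 0.0134. At 14 days Lin28a fell by 0.84 ± 0.20 in the authors' deposited table, at an adjusted p of 0.000625.

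Markers of mature cells that keep these genes are read against the 20.7% of all genes called at 14 days, 11.5% higher and 9.21% lower. There 4 of 14 amacrine markers rose and 0 fell (median 0.26, summed level 226 units). Slc5a7, the choline transporter gene, led with 1.75 ± 0.29 in the authors' deposited table (adjusted p = 1.85e-07) at a mean count of 27.7. Chat had the lowest value of that list, -0.41 ± 0.29 in the authors' deposited table, and did not pass (adjusted p = 0.336). These values stand beside the rise of Six3. Of 12 Müller glia markers 0 rose and 6 fell (median -0.40, summed level 3490 units), including Aqp4 at -1.11 ± 0.19 in the authors' deposited table, at an adjusted p of 3.55e-07. Rax and Sox2, which Müller glia keep, had values of -0.15 and -0.03 beside this. All 8 microglia markers rose (median 1.69, summed level 133 units), beside the rises of Ccnd1 and of the Mcm genes, although the cells were sorted for GFP. At 48 h microglia markers summed to 14.8 units and 0 of 5 were called by the authors' DESeq2 test (0 at an unadjusted p under 0.05). Levels per group are not in the tables. Of 12 bipolar markers 4 rose and 1 fell (median 0.03), and of 12 photoreceptor markers 0 rose and 8 fell (median -0.52). Ganglion cell markers, of a cell type that keeps Pax6 and Six6, had 2 of 12 rising and 0 falling (median -0.09). The amacrine and ganglion cell counts are small and were not tested against the shares over all genes. The part of these cell types in the changes of the 9 genes was not tested.

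At 48 h amacrine markers had a median of -0.25 with 0 of 14 called by the authors' DESeq2 test (at an unadjusted p under 0.05, 0 were higher and 3 lower). Müller glia markers had a median of -0.30 with 1 of 10 rising and 0 falling, where 3.04% of all genes were called. At an unadjusted p under 0.05 by the same test, 1 of these markers was higher and 6 were lower. At E17.5, with 10.03% of all genes called, amacrine markers fell almost throughout, 11 of 12 tested, with a median of -0.88. Tfap2a and Tfap2b, which mark amacrine cells, fell there by 1.18 and 1.01 in the authors' deposited table, at adjusted p of 3.03e-33 and 4.11e-29. Pax6, which amacrine cells express, was at -0.15 beside them. Lens markers rose in the same KO retinas, 6 of 9 tested with a median of 0.64, led by Crygd at 1.87 in the authors' deposited table, at an adjusted p of 1.75e-26. Lens cells also express Pax6 and Six3, and whole retinas can carry lens. The part of either cell type was not tested.

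**Figure D4:**
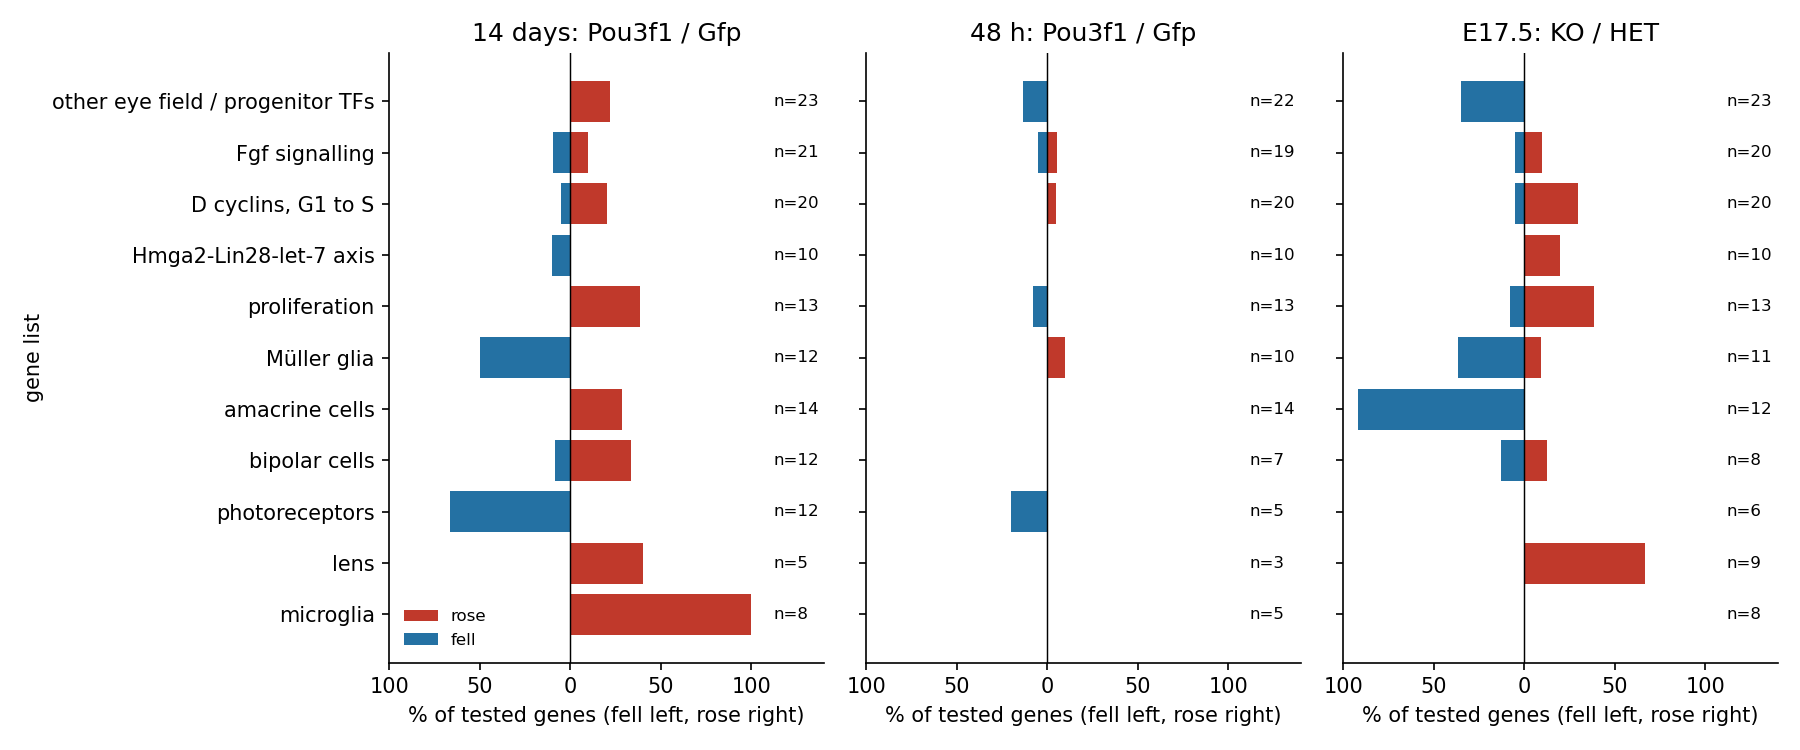
Share of tested genes in each list that fell (blue, to the left) or rose (red, to the right) at an adjusted p under 0.05, at 14 days and 48 h (Pou3f1 over Gfp) and at E17.5 (KO over HET), with the number tested at the right. At E17.5 the amacrine bar reaches 11 of 12 falling and the lens bar 6 of 9 rising, and at 14 days the microglia bar reaches 8 of 8 rising.

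Ccnd1 and Fgf15 share a position that the choice of genes did not use. They are neighbours on chromosome 7 (GRCm38), Fgf15 at 144896531 to 144900953 and Ccnd1 at 144929931 to 144939925, 29.0 kb apart. Their values were close in every comparison, 0.83 and 0.76 at 14 days, -0.18 and -0.14 at 48 h and 0.18 and 0.17 at E17.5 in the authors' deposited tables. Other genes of the interval did not all share this. LTO1, which lies between them and overlaps 1100 exonic bases of Ccnd1 on the opposite strand, fell at 14 days by 0.33 ± 0.13 in the authors' deposited table, with an adjusted p of 0.0499. The strandedness of the libraries is unknown here, so reads of the shared bases may count for either gene. Fgf3, on the other side of Fgf15, had 0.21 ± 0.28 at 14 days and 0.40 ± 0.29 at 48 h in the authors' deposited tables, and its rise at E17.5 is given above. Six6 has such an overlap too, of 192 exonic bases with 4930447C04Rik on the opposite strand, which fell at 14 days by 0.68 ± 0.13 in the authors' deposited table, at an adjusted p of 4.29e-06. LTO1 and 4930447C04Rik were named after their values were seen. Other members overlap opposite-strand genes that have no values here. These are Fgf15 (761 exonic bases with Gm26793, 26 with Gm39119), Rax (1604 with Raxos1), Six3 (168 with Gm28528, 106 with Six3os1) and Hmga2 (140 with 1700006J14Rik). Whether the closeness of Ccnd1 and Fgf15 goes beyond chance was not tested.

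**Figure D5:**
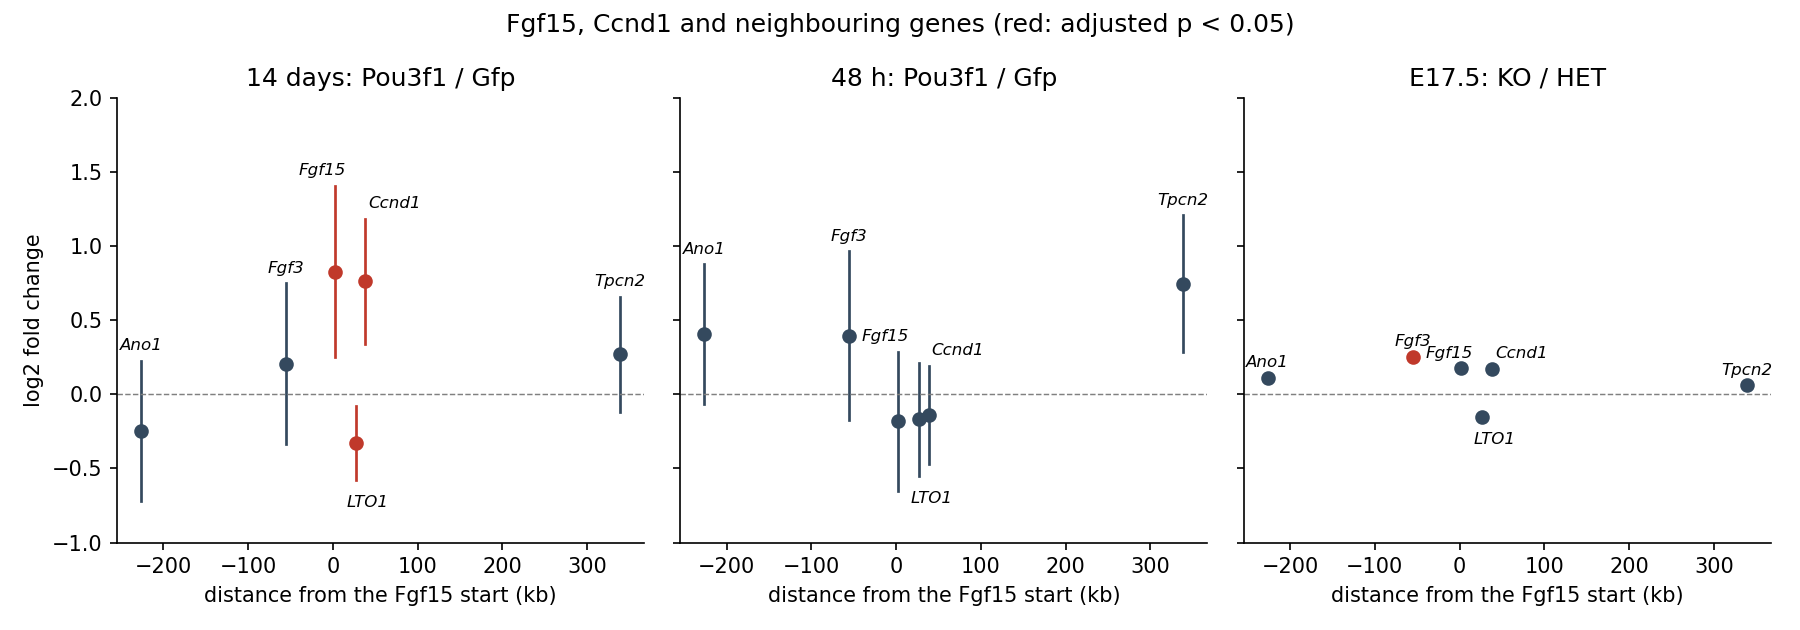
Log2 fold change (vertical axis) of Fgf15, Ccnd1 and the protein-coding neighbours Ano1, Fgf3, LTO1 and Tpcn2. The horizontal axis is the distance of the gene's middle from the Fgf15 start in kb. Panels show 14 days and 48 h (bars are 95% intervals) and E17.5. Fgf4, with a value only at E17.5, is not drawn. Red marks an adjusted p under 0.05. Fgf15 and Ccnd1 lie side by side in each panel, at 0.83 and 0.76 in the first, while LTO1 between them lies at -0.33 there.

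Promoters are shown for Six3 and Hmga2, the ones of the 9 genes with the smallest adjusted p at 14 days and at E17.5, and for Sox2, a gene with no call that holds part of the POU octamer. RefSeq windows from 250 bases before to 50 after the start were found for 6 of the 9 genes (GRCm38.p6), and 2 windows for Pax6. The RefSeq starts can differ from the gene spans given above. The Sox2 window ends before the span given for Sox2, and the Six3 window lies inside that given for Six3. Capitals mark the octamer core ATGCAA and the CCAAT box, CCAAT or ATTGG on the opposite strand, and lines run 5′ to 3′.
Six3 promoter (chr17:85620584-85620883, plus strand): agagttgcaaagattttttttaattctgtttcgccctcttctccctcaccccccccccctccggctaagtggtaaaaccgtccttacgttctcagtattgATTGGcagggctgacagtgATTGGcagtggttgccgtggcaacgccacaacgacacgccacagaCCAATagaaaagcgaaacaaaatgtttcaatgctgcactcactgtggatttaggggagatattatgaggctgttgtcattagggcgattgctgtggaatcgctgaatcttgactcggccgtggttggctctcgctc
Hmga2 promoter (chr10:120476420-120476719, minus strand): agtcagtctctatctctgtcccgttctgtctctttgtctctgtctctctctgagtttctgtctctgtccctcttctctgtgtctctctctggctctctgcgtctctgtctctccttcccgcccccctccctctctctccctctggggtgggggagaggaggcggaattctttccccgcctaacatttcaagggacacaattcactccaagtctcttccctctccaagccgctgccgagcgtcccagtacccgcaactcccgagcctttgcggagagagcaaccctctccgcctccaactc
Sox2 promoter (chr3:34649745-34650044, plus strand): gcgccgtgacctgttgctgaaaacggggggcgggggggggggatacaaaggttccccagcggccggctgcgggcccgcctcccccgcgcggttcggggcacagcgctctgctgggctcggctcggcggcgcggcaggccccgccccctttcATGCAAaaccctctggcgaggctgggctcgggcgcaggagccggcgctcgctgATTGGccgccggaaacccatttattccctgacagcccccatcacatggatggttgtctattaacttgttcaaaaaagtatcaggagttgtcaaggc

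The full octamer ATGCAAAT, a site that POU factors are known to bind, was in 0 of the 7 windows searched on both strands, against 1.74% of all 32851 RefSeq windows. The shorter core ATGCAA, which is part of the octamer, was in 10.7% of all windows. It occurred once in the Sox2 window and once in 1 of the Pax6 windows, both of genes without a call in any comparison. The CCAAT box was in 37.4% of all windows and in those of Six3 (3 matches), Six6 (2), Sox2, Vsx1 and 1 of Pax6, but not in that of Hmga2. The TATA box TATAAA was in none of the 7 windows and in 13.6% of all windows. These matches describe the letters of short windows and say nothing of binding elsewhere.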

How the data were processed

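RNA-seq results of 19 mouse retina libraries were used as 3 deposited tables of the authors' own comparisons. As tools of the authors, the submitters' processing notes name Salmon, DESeq2 and MACS2 with mm10, without versions, annotation or design. Per the file headers, the authors deposited a log2 fold change in each table, and for the overexpression tables its SE, a Wald score and the mean normalized count (a signal averaged over libraries). The p-value and adjusted p-value are also the authors' deposited values. Checked on the values, the score is the fold change over its SE to within 4.45e-07, and the adjusted p is Benjamini-Hochberg over the listed genes with one to within 5.60e-06.

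Members and lists were chosen with earlier results of these data known. Named are the 9 members, up to 4 called genes per list by adjusted p, and, chosen after their values were seen, neighbours of Ccnd1, Fgf15 and Six6, Mki67 at E17.5 and the nuclear factor I genes beyond that rule. A few list genes are not reported here. Computed here were intervals (95%, normal, from the SE), the z test on 14 day minus 48 h fold changes, counts and medians per list, and length-scaled levels from GENCODE M21 exons (99.6% of genes at 14 days and 99.7% at 48 h). Member transcripts had no match to another gene at 95% identity over 150 bases (BLAST 2.17.0). Calls were repeated with a 2-fold limit, at an adjusted p under 0.01, with no abundance filter, over mean counts of at least 10 and after centring on the median. The work used matplotlib 3.10.9, scipy 1.17.1, numpy 2.4.6 and pandas 2.3.3 under Python 3.11.15.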

Additional observations from a re-analysis of the deposited data

Results flagged for a closer look

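The response to added Pou3f1 differed between the ages for 3 of the 8 genes compared by the z test on the difference. The test was adjusted over 14580 genes and called 6.14% of them. At an adjusted p under 0.01, 0 of the 8 genes differed. Ccnd1 differed by 0.90 on the log2 scale, 14 days minus 48 h (adjusted p = 0.0233), Six3 by 0.69 (adjusted p = 0.0362) and Hmga2 by -0.95 (adjusted p = 0.0277). Ccnd1 and Six3 rose at 14 days by the authors' test and passed no test at 48 h, while Hmga2 passed at neither age. The values of Hmga2 had opposite signs, but its 14 day interval of 0.631 to 1.07-fold includes no change, so a reversal is not shown. The contrast in Pou3f1 itself also differed, 47.6-fold at 14 days and 1.87-fold at 48 h in the authors' deposited tables. Shrinkage toward 0, of which the overexpression values bear signs, may understate both folds, so neither is a sure measure of the contrast. Its mean level over both groups was 490 length-scaled units at 14 days and 2162 at 48 h, and levels per group are not in the tables. The size of this contrast, the maturity of the sorted cells, the normalization and the number of libraries cannot be told apart from the time since electroporation.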

How the results depend on the processing

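Of 133 single-gene values recomputed under the alternatives, 125 kept their status as called or not called, 8 lost a call, 0 gained one and 0 reversed. Most were not called to begin with. At an adjusted p under 0.01 or with the 2-fold limit such genes could not gain a call, so their status there was fixed in advance. All 8 losses came at these settings. With an adjusted p under 0.01, Fgf15 lost its call at 14 days, and 0 genes of the set differed between 14 days and 48 h. Calls over all genes were then 2066 at 14 days, 230 at 48 h, 874 at E17.5 and 441 for the difference. Requiring at least 2-fold left 0 of the 9 genes called at 14 days and 0 at E17.5, and 496, 106 and 57 genes in all at 14 days, 48 h and E17.5, since each called member changed by less than 2-fold. Dropping the abundance filter within each table changed no call of the 9 genes. Some list counts did shift without the filter, though most did not. Called genes went from 3 to 1 for the other eye field and progenitor factors at 48 h. They went from 5 to 3 for bipolar markers at 14 days. At E17.5 they went from 7 to 4 for the D-type cyclin list and from 5 to 3 for Müller glia markers. A mean count of at least 10 and centring on the median, run at 14 days, at 48 h and for the difference, changed none there, and could not be run at E17.5, where the table has no mean count or SE. No paired analysis was possible because the tables hold no values per library, and for the same reason no replicate could be left out in turn. The mean count of 32.3 limits what the 14 day table shows for Fgf15.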

Other observations

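The nuclear factor I genes Nfia, Nfib and Nfix, which drive late progenitors toward glia and late-born neurons, were on the progenitor list and were singled out after their values were seen. At E17.5 all 3 fell in KO over HET retinas, Nfia by 0.46, Nfib by 0.39 and Nfix by 0.89 in the authors' deposited table, at adjusted p of 0.0247, 0.0121 and 5.79e-06. At 14 days Nfib rose by 0.69 ± 0.15 in Pou3f1 over Gfp cells, while Nfia was at 0.29 ± 0.13 and Nfix at 0.09 ± 0.13 in the authors' deposited table, at adjusted p of 0.000208, 0.0868 and 0.662. At 48 h Nfix fell by 0.71 ± 0.21, while Nfia was at -0.45 ± 0.19 and Nfib at -0.29 ± 0.17 in the authors' deposited table, at adjusted p of 0.0337, 0.188 and 0.433.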
